A study of Mus musculus with 8 samples.

Results

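The endothelial genes described here are 34 genes used as markers of the cells that line blood vessels, and all 34 were measured among the 18193 genes of the array. Each gene was read from 1 probe set, the one with the highest mean over the 8 arrays among the probe sets annotated to that gene alone. RNA came from whole brain of E12.5 (mid-gestation, counted in embryonic days) mouse embryos of strain C57/BL6. The 4 mutant arrays held *Nestin Cre+, Rest GTi/GTi* brain and the 4 control arrays held *Rest GTi/GTi* brain. Both genotypes carried the inverted gene trap in both copies of *Rest*, the gene of a repressor of neuronal genes, and the trap lets *Rest* splice normally until Cre turns it around. *Nestin Cre* acts in neural progenitors and their progeny, so the label names no recombination in the vessels themselves. The labels give no array with Cre and intact *Rest* alleles, so effects of Cre itself and of losing REST cannot be told apart. The labels call the arrays biological replicates but do not say whether an array held 1 embryo or several, so the p-values measure only the spread between these samples.

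*Rest* was not called, and its readings did not separate the genotypes. Its brightest probe set read 163, 217, 84.4 and 134 on mutant arrays 1 to 4 and 170.1, 272, 211 and 198 on control arrays 1 to 4 (log2 difference -0.51 ± 0.25, limma adjusted p = 0.758). The next brightest read 161, 204, 76.6 and 77.1 on the mutant and 185, 223, 158 and 213 on the control arrays (-0.63 ± 0.29, limma adjusted p = 0.743). Mutant arrays 3 and 4 lay below every control on both probe sets, whereas mutant array 2 lay within the control range on both and mutant array 1 on the second and just below it on the first. Where these probe sets lie relative to the trap was not checked, so the *Rest* readings do not settle the genotype of arrays 1 and 2. Genotype was taken from the labels, and mutant below means labelled as mutant. *Csf1r*, called higher in the mutant, was high on all 4 mutant arrays, as given below.

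Brain vessels grow in from a plexus around the neural tube. Their endothelial cells respond to VEGF through the receptors KDR and FLT1, mature under angiopoietin and TIE signalling, seal their contacts with VE-cadherin and claudin 5, and acquire barrier properties under Wnt and beta-catenin signalling. The transcription factors of the ETS and SOXF families set much of the endothelial programme. In bulk tissue, fewer cells of a type and less RNA per cell cannot be told apart, and this holds for more cells or more RNA as well.

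None of the 34 members passed an adjusted p of 0.05 in either direction by limma, and all but 1 of them read higher in the mutant. The called share of all genes was 0.214% higher and 0.011% lower in the mutant. The log2 fold change, mutant minus control, was above 0 for 33 members and below 0 for *Mfsd2a* alone, which turned to 0.02 when the arrays were not scaled. The median member difference was 0.30, against -0.0014 over all genes, of which 49.5% were above 0. Without adjustment, 10 members (29.4%) had a limma p under 0.05 with the mutant higher, against 3.94% of all genes, and 0 had the mutant lower, against 3.03%. The count of 10 was 3 without mutant array 1, 4 without mutant array 2, 20 without mutant array 4, 6 without control array 1, and 4 without control array 2 or control array 3. The 8 defining endothelial genes were *Pecam1*, *Cdh5*, *Kdr*, *Tek*, *Tie1*, *Cldn5*, *Emcn* and *Egfl7*. Their mean normalized intensities over the 8 arrays were 53.4 to 252. The median over all probe sets of a deposited array was 40.9 to 68.0, so the lowest of these means lay near it. No detection call was made, and the levels do not show which cells a signal came from.

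The difference was carried mainly by mutant arrays 1 and 2, the pair on which *Rest* read near the controls. The mean of the 34 members on the log2 scale, relative to the mean of the controls, was 0.64, 0.44, 0.12 and -0.0029 on mutant arrays 1 to 4 and 0.05, -0.04, -0.11 and 0.10 on control arrays 1 to 4. Mutant array 1 read above every control for 31 members, against 25.6% of all genes, and mutant array 2 for 23, against 21.3%. Mutant array 3 did so for 11, against 21.6% of all genes, and mutant array 4 for 7, against 21.7%. Mutant array 3 read below every control for 3 members, against 20.5% of all genes, and mutant array 4 for 6, against 20.6%. The counts of array 4 were thus near those of all genes. Mutant arrays 1 and 2 both lay above the other 6 arrays for 21 members (61.8%), against 7.9% of all genes. The members varied more within the mutant group than within the controls for 27 of the 34, as did 58.0% of all genes.

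**Figure D1:**
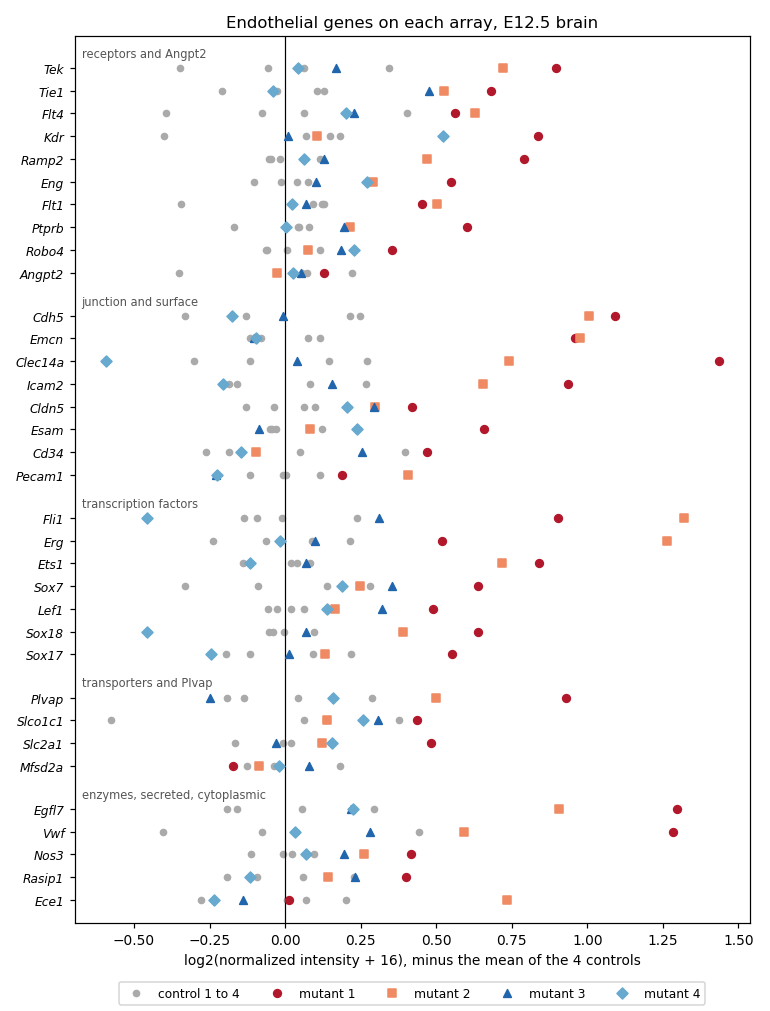
Each row is an endothelial gene, grouped by role, and each point is its log2(normalized intensity + 16) on 1 array minus the mean of the 4 controls (grey, control arrays; colours and shapes, mutant arrays 1 to 4). Mutant array 1 lies above every control for 31 of the 34 genes and mutant array 4 for 7.

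Mesenchymal genes, which mark fibroblasts and the tissue around the brain, were high on the same pair of arrays. The mean of 14 mesenchyme genes relative to the controls was 1.90, 3.18, -0.06 and -0.23 on mutant arrays 1 to 4 and -0.34, 0.29, -0.30 and 0.35 on the controls, and their summed intensity spanned 701 to 14711 on the mutant and 630.2 to 1532 on the control arrays. All 14 mesenchyme genes had a difference above 0 (median 1.02) and 0 were called. *Col1a1*, the chain of the main collagen of bone and skin, read 182, 598, 3.16 and 1.68 on mutant arrays 1 to 4 and 1.84, 11.96, 0.912 and 33.5 on control arrays 1 to 4, so it was near 0 on mutant arrays 3 and 4. *Dcn*, the proteoglycan decorin and the gene of this list with the smallest p, read 470.1, 267, 93.7 and 54.3 on the mutant and 34.2, 48.4, 42.99 and 61.9 on the control arrays, so mutant array 3 was also above every control for it. *Lum*, a proteoglycan of connective tissue, read 1351, 1880.2, 57.04 and 25.5 on the mutant and 19.8, 88.1, 31.2 and 138 on the control arrays. The order of the 2 arrays was not the same in both lists, since mutant array 1 had the highest reading for 25 endothelial members and mutant array 2 for 11 of the mesenchyme genes.

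Other lists moved with these arrays too. The 6 choroid plexus genes had means of 1.54, 1.32, -0.65 and -0.53 on mutant arrays 1 to 4 and -0.68, -0.27, -0.14 and 1.08 on the controls, and *Ttr*, the transport protein of choroid plexus epithelium, read 4672, 5232, 34.6 and 22.3 on the mutant and 34.3, 98.3, 196 and 2864 on the control arrays. Summed choroid plexus intensity was 2054 to 7547 on the mutant and 2191 to 5408 on the control arrays, with 0 of 6 genes called. *Otx2* alone read 1921 to 2556 on the mutant and 2112 to 2408 on the control arrays, so the lowest sums were mostly this gene. The 10 measured hindbrain Hox genes ran otherwise, with means of -0.46, 0.68, 2.21 and 1.39 on the mutant and 0.78, -0.31, -0.41 and -0.06 on the control arrays, sums of 78.5 to 2006 and 98.5 to 657, and 0 called. The part of tissue content in the endothelial difference was not tested. A fit with the mesenchyme mean as a covariate is given below. It cannot separate content from genotype, because that mean was far higher on mutant arrays 1 and 2 than on any other array.

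**Figure D2:**
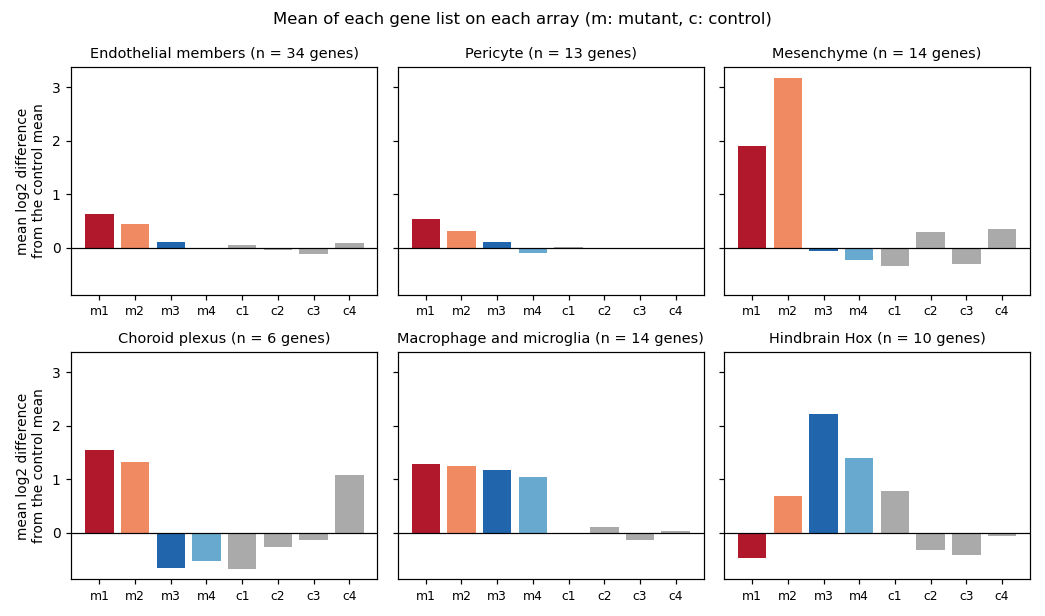
Bars give the mean log2 difference from the control mean over the genes of each list, for mutant arrays 1 to 4 (m1 to m4) and control arrays 1 to 4 (c1 to c4). The endothelial, pericyte and mesenchyme means are highest on mutant arrays 1 and 2, the macrophage and microglia mean is high on all 4 mutant arrays, and the hindbrain Hox mean is highest on mutant array 3.

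Measured on mutant arrays 3 and 4 alone against the 4 controls, the median member difference was 0.06, with 23 members above 0 and 11 below, and 0 called. With the mesenchyme mean as a covariate it was 0.13, with 28 members above 0 and 6 below. Both arrays lay above every control for 4 members (11.8%), against 8.38% of all genes, and these were *Cldn5*, *Eng*, *Robo4* and *Lef1*. Both lay below every control for *Pecam1* alone, against 7.32% of all genes.

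**Figure D3:**
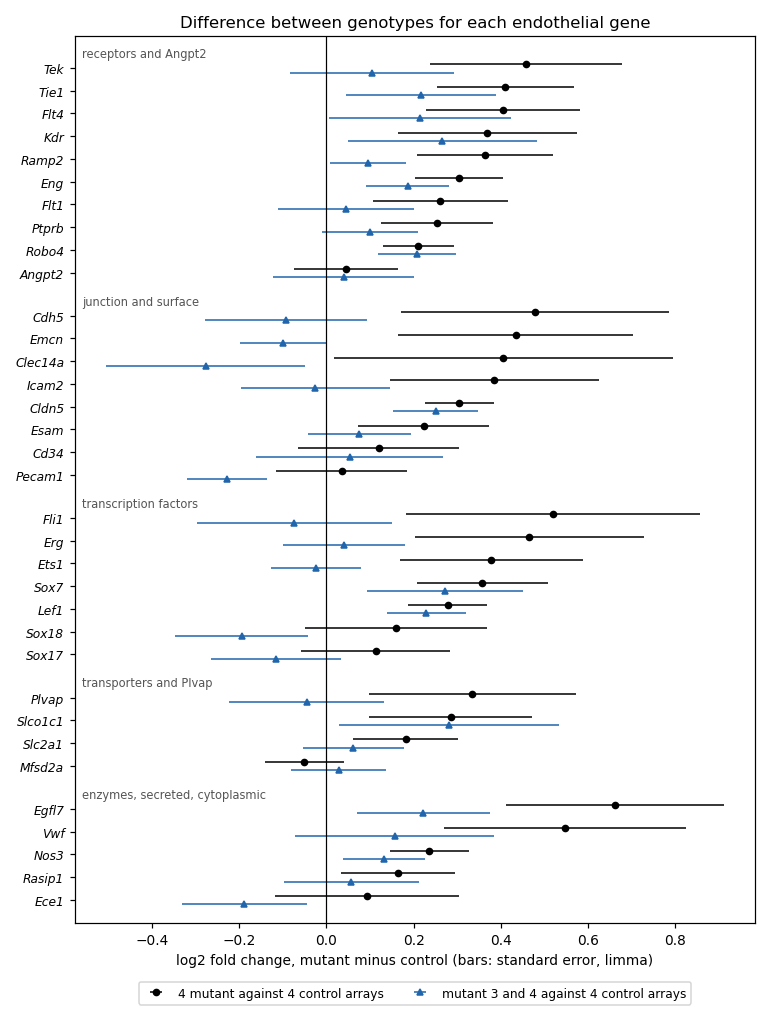
Points give the log2 fold change, mutant minus control, for each endothelial gene with its standard error from limma (black circles, all 8 arrays; blue triangles, mutant arrays 3 and 4 against the 4 controls). With all arrays 33 of 34 genes lie above 0, and with mutant arrays 3 and 4 alone 23 do.

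All 4 mutant arrays lay above all 4 controls for 3 members (8.82%), against 2.48% of all genes, and below them for 0, against 2.15%. The 3 were *Cldn5*, *Eng* and *Lef1*. *Cldn5*, the tight junction claudin of the blood-brain barrier, read 305, 279, 278 and 260.5 on mutant arrays 1 to 4 and 235, 241, 218 and 203 on control arrays 1 to 4. The lowest mutant array was above the highest control. The part of tissue content in this difference was not tested. The means were 281 ± 18.3 in the mutant and 224 ± 16.98 in the control (SD, n = 4), a log2 fold change of 0.30 ± 0.080 (SE), with a limma adjusted p of 0.441 and an exact two-sided permutation p of 0.0286, the smallest that 4 arrays against 4 can give. It was the smallest unadjusted limma p among the members, 0.00459. The difference ranged from 0.25 to 0.37 over all settings tried and was 0.25 on mutant arrays 3 and 4 alone.

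*Eng* encodes endoglin, a co-receptor for BMP9 and TGF-beta ligands. It read 160.3, 131, 113 and 129 on the mutant and 103, 108, 96.1 and 111 on the control arrays, so the groups did not overlap, although mutant array 3 came close to the highest control. The difference was 0.30 ± 0.10 (SE, limma adjusted p = 0.607), and 0.19 on mutant arrays 3 and 4 alone. A second *Eng* probe set gave 0.39. *Lef1*, a partner of beta-catenin that is active in brain endothelium and also in parts of the neural tube, read 902, 716, 799 and 703 on the mutant and 646, 625, 665 and 612 on the control arrays. All 4 mutant arrays were above the controls, with mutant array 3 second only to mutant array 1. Its difference was 0.28 ± 0.091 (SE, limma adjusted p = 0.594), with 0.20 from its second probe set. Neural cells also express *Lef1*, and their part in its reading was not tested.

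**Figure D4:**
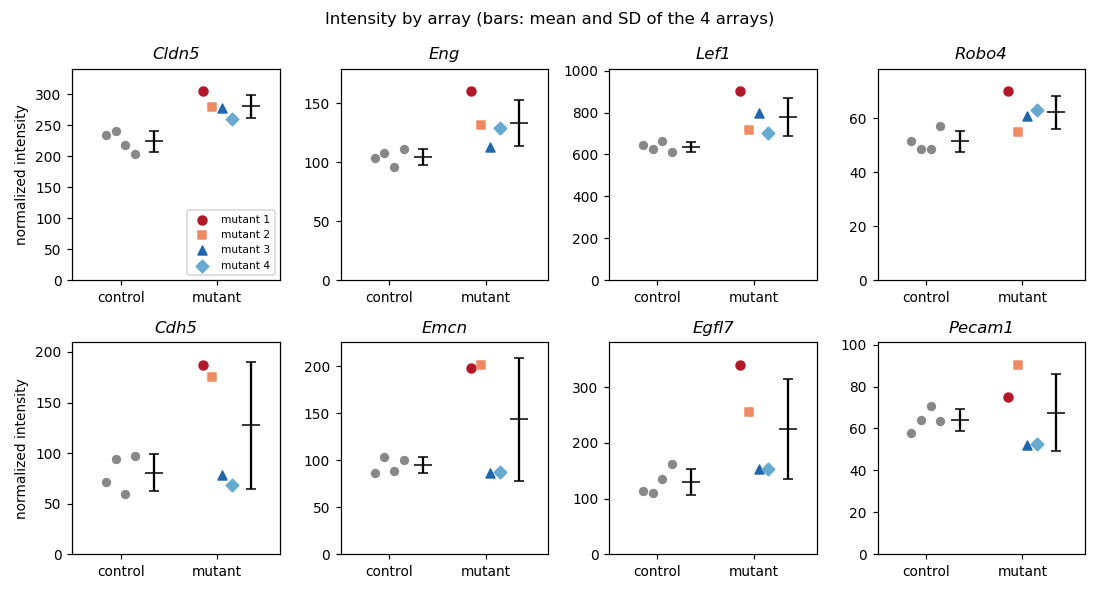
Normalized intensity of 8 endothelial genes on each control array (grey) and mutant array (colours), with the mean and SD of the 4 arrays as a bar; each vertical axis starts at 0. *Cldn5*, *Eng* and *Lef1* separate on all arrays, whereas *Cdh5*, *Emcn* and *Egfl7* are far above the controls on mutant arrays 1 and 2 only.

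Promoter windows are shown for 4 members, the separating genes *Cldn5* and *Eng*, and *Egfl7* and *Robo4*, which hold a match to an ETS motif. The RefSeq windows (GRCm38.p6) run from 250 bases before a transcript start to 50 after it, written 5′ to 3′ on the gene's strand in lower case, with matches to CAGGAAG or its reverse complement in capitals. The windows are chr16:18776597-18776896 for *Cldn5*, chr2:32646345-32646644 for *Eng*, chr2:26580833-26581132 for *Egfl7* and chr9:37401722-37402021 for *Robo4*, all on the plus strand.
Cldn5: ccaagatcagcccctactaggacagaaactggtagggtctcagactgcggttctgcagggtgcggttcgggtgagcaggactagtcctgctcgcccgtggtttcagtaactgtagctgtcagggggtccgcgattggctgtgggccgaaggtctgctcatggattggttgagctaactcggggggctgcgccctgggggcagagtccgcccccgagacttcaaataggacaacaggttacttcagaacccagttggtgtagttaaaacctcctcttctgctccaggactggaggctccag
Eng: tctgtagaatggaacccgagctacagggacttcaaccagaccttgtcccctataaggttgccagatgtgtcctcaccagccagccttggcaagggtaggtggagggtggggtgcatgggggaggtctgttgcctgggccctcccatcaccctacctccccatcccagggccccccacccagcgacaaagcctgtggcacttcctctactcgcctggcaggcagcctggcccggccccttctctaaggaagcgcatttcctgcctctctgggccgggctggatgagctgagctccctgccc
Egfl7: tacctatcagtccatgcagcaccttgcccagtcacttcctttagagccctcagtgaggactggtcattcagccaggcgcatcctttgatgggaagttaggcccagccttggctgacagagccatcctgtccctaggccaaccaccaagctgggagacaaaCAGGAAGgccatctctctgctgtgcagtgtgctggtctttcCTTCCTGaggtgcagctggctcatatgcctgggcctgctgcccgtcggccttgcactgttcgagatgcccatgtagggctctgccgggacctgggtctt
Robo4: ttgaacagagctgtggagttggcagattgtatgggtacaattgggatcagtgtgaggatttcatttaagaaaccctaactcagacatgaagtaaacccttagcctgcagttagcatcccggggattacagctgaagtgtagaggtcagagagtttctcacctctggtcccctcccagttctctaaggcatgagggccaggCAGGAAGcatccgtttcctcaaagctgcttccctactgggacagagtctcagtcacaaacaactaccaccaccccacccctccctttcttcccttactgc
The *Egfl7* window is the first of its 3. In it the matches began 90 and 49 bases before the start, and in *Robo4* 1 began 50 bases before it. Of 29 windows for 19 members, 8 held the ETS motif (27.6%), from *Cd34*, *Egfl7*, *Emcn*, *Erg*, *Lef1*, *Rasip1* and *Robo4*, against 13.3% of all 32851 windows of that length. The TCF/LEF motif CTTTGAT stood in 1 member window, of *Egfl7*, against 3.73% of all windows. The left part of the RE1 element that REST binds, TTCAGCACC, and its right part, GGACAGC, stood in 0 of the 29 windows, against 0.371% and 6.56% of all windows, searched on both strands, and no matches overlapped in the printed windows. A match describes letters in this window and no match says nothing about the factor.

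Among the receptors and the *Angpt2* ligand, all 10 differences were above 0 (median 0.33) and 5 had an unadjusted limma p under 0.05. Their mean on the 4 mutant arrays was 0.59, 0.35, 0.16 and 0.13. *Kdr*, the main signalling receptor for VEGF-A, read 273, 158, 147 and 216 on the mutant and 167, 106, 154 and 163 on the control arrays, with mutant arrays 1 and 4 above every control and the other 2 within their range. Its difference was 0.37 ± 0.21 (SE, limma adjusted p = 0.794). *Tek*, the receptor for the angiopoietins, read 161, 140.2, 90.5 and 81.8 on the mutant and 83.2, 75.2, 58.5 and 104 on the control arrays, a difference of 0.46 ± 0.22 (SE, limma adjusted p = 0.758). *Tek* was high on mutant arrays 1 and 2, and arrays 3 and 4 were within the control range. *Tie1*, the orphan receptor that pairs with TEK, read 78.5, 68.9, 65.9 and 41.3 on the mutant and 47.4, 41.9, 34.96 and 48.5 on the control arrays, with 3 mutant arrays above every control and the other below most of them. Its difference was 0.41 ± 0.16 (SE, limma adjusted p = 0.682).

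*Robo4*, a roundabout receptor that steadies vessels, read 69.9, 54.9, 60.6 and 62.9 on the mutant and 51.6, 48.4, 48.5 and 56.9 on the control arrays. Only mutant array 2 was within the control range, and the difference was 0.21 ± 0.082 (SE, limma adjusted p = 0.683). *Ramp2*, the partner that makes a receptor for adrenomedullin, read 507, 402, 314 and 299.8 on the mutant and 277, 283, 275 and 312 on the control arrays, a difference of 0.36 ± 0.16 (SE, limma adjusted p = 0.722). Here mutant array 4 overlapped the controls, mutant array 3 was just above them, and arrays 1 and 2 were well clear of them. *Flt4*, the receptor for VEGF-C, read 102, 108, 77.8 and 76.2 on the mutant and 90.1, 60.05, 45.02 and 67.7 on the control arrays, with a difference of 0.40 ± 0.18 (SE, limma adjusted p = 0.725). Mutant arrays 3 and 4 lay within the control range for *Flt4*. Its second, dimmer probe set went the other way, with 13.5, 26.8, 18.96 and 6.06 on the mutant and 27.7, 33.0, 32.3 and 37.9 on the control arrays. There every mutant array lay below every control, with a difference of -0.63 ± 0.19 and an unadjusted limma p of 0.00909 against 0.0493 for the chosen probe set, so *Flt4* has no settled direction although it is counted among the 10 higher members. For *Flt1*, a VEGF receptor that also acts as a decoy, the difference was 0.26 ± 0.15, and its other probe sets gave 0.39, 0.19 and -0.16. On the probe set that gave 0.39 every mutant array lay above every control, narrowly for mutant array 3 (62.8 against 62.2 on control array 2). Its unadjusted limma p was 0.00579 and its limma adjusted p 0.479. The phosphatase *Ptprb*, which restrains TEK, differed by 0.25 ± 0.13, with 0.49 and 0.0045 from its other probe sets. *Angpt2*, an antagonist ligand of TEK, differed by 0.05 ± 0.12.

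All 8 junction and surface genes had differences above 0 (median 0.35), and only *Cldn5* had an unadjusted limma p under 0.05. *Cdh5*, VE-cadherin, the adhesion protein of endothelial contacts, read 187, 175, 78.8 and 68.3 on the mutant and 71.1, 94.5, 59.7 and 97.1 on the control arrays. Mutant arrays 1 and 2 were far above every control, and arrays 3 and 4 lay within the control range. Its difference was 0.48 ± 0.31 (SE, limma adjusted p = 0.825), and -0.09 on mutant arrays 3 and 4 alone. *Emcn*, an endothelial sialomucin, read 198, 201, 86.8 and 87.05 on the mutant and 85.9, 104, 88.4 and 100.3 on the control arrays and had the same form, with a difference of 0.43 ± 0.27 (SE, limma adjusted p = 0.818). *Pecam1*, the platelet and endothelial adhesion molecule, read 75.3, 90.2, 52.3 and 52.5 on the mutant and 57.98, 64.2, 70.8 and 63.8 on the control arrays. Arrays 1 and 2 were above every control and arrays 3 and 4 below every control, and the difference was 0.04 ± 0.15 (SE, limma adjusted p = 0.989).

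Of the rest of this group, *Clec14a*, a C-type lectin of angiogenic endothelium, differed by 0.41 ± 0.39 and ran from 9.04 to 86.2 within the mutant group. *Icam2*, an adhesion molecule for leukocytes, differed by 0.39 ± 0.24. The junction protein *Esam* differed by 0.22 ± 0.15, and the sialomucin *Cd34*, shared with blood progenitors, by 0.12 ± 0.18. Each of these had overlapping groups.

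The 7 transcription factors all had differences above 0 (median 0.36), and *Lef1* and *Sox7* had an unadjusted limma p under 0.05. *Sox7*, of the SOXF family, read 147, 108, 118 and 103 on the mutant and 111, 82.4, 67.3 and 99.3 on the control arrays, which overlapped, with a difference of 0.36 ± 0.15 (SE, limma adjusted p = 0.717). The other SOXF genes *Sox18* and *Sox17* differed by 0.16 ± 0.21 and 0.11 ± 0.17. A second *Sox17* probe set gave 0.34. The ETS-family genes *Fli1*, *Erg* and *Ets1* differed by 0.52 ± 0.34, 0.47 ± 0.26 and 0.38 ± 0.21. Other *Ets1* probe sets gave 0.44, -0.30 and 0.02. *Fli1* read 82.3, 115, 49.1 and 22.3 on the mutant and 31.8, 36.2, 33.2 and 45.96 on the control arrays, with mutant arrays 1, 2 and 3 above every control and mutant array 4 below every control.

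Of the 4 genes of transporters and *Plvap*, 3 had differences above 0 (median 0.23), and 0 of the 4 had an unadjusted limma p under 0.05. *Slc2a1*, the glucose transporter of the barrier, differed by 0.18 ± 0.12, and *Slco1c1*, a carrier of thyroid hormone, by 0.29 ± 0.19. *Plvap*, the diaphragm protein of leaky vessels, differed by 0.33 ± 0.24. *Mfsd2a*, the lipid transporter that keeps transcytosis low at the barrier, read 300.3, 319, 360.1 and 335 on the mutant and 335, 332, 311 and 388 on the control arrays. Its groups overlapped, with mutant array 1 the lowest of all 8 arrays, and it had a difference of -0.05 ± 0.090.

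Among the enzymes and the secreted and cytoplasmic proteins, 5 of 5 differences were above 0 (median 0.24). *Egfl7*, a secreted protein of growing vessels whose promoter holds the ETS matches given earlier, had the largest difference of all members, 0.66 ± 0.25 (SE, limma adjusted p = 0.675). It read 339.7, 255, 152 and 153 on the mutant and 114, 111, 134 and 161 on the control arrays, so mutant arrays 3 and 4 lay below the highest control. Its other probe sets gave 0.19 to 0.35, a smaller difference, and this chosen probe set may hybridise with several transcripts. *Nos3*, the endothelial nitric oxide synthase, read 108, 95.5, 90.6 and 81.6 on the mutant and 76.7, 83.4, 70.00 and 78.6 on the control arrays, with mutant array 4 within the control range, and differed by 0.24 ± 0.090 (SE, limma adjusted p = 0.68). *Vwf*, the von Willebrand clotting factor, differed by 0.55 ± 0.28, *Rasip1*, a regulator of vessel lumen, by 0.16 ± 0.13 and *Ece1*, the endothelin-converting enzyme, by 0.09 ± 0.21.

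The probe sets of a member did not always run together. The 34 members had 59 probe sets, and 16 members had more than 1. Of the 25 not chosen, 18 had a mean intensity of at least 16, of which 15 were above 0 and 3 below, and 0 member probe sets were called. For 8 members the chosen probe set may hybridise with several transcripts.

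In 42 other vascular signalling genes the median difference was 0.12, with 27 above 0, 15 below and 0 called. Unadjusted, 8 of them were higher and 5 lower at a limma p under 0.05, against 3.94% and 3.03% of all genes. All 4 mutant arrays lay above all 4 controls for 1 of the 42 and below them for 3, against 2.48% and 2.15% of all genes. *Mef2c*, a transcription factor of vessels and neurons, read 205, 216, 184 and 185 on the mutant and 169.9, 136, 153 and 164 on the control arrays, which did not overlap (difference 0.31 ± 0.089, limma adjusted p = 0.51). *Ecscr*, an endothelial surface protein, and *Hhex*, a homeobox factor, differed by 0.44 ± 0.13 and 0.55 ± 0.17. *Krit1*, which steadies endothelial junctions, was 1 of the 3 genes lower on every mutant array than on every control, with a difference of -0.20 ± 0.064.

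The 19 measured genes of Wnt and beta-catenin signalling in brain vessels had a median of -0.01, with 8 above 0, 11 below and 0 called. All 4 mutant arrays lay below all 4 controls for 2 of the 19, against 2.15% of all genes, and above them for 0, against 2.48%. *Tspan12*, the tetraspanin that helps norrin signal through FZD4, read 109, 112, 106 and 77.3 on the mutant and 135, 130.3, 147 and 157 on the control arrays, every mutant array below every control, with a difference of -0.45 ± 0.11 (SE, limma adjusted p = 0.429). *Gpr124* (now *Adgra2*), the co-receptor for WNT7A and WNT7B, read 78.1, 129, 27.5 and 30.01 on the mutant and 19.2, 16.6, 22.7 and 31.8 on the control arrays, high on mutant arrays 1 and 2 alone, a difference of 0.92 ± 0.37. *Tcf7l1*, a repressive TCF factor, and *Apcdd1*, a Wnt inhibitor, differed by 0.30 ± 0.11 and 0.29 ± 0.13. The 16 measured other barrier genes had a median of 0.14, with 13 above 0, 3 below and 0 called. In that list *Cgnl1*, a junction protein, differed by 0.36 ± 0.17 and *Foxc1*, a factor of the meninges and pericytes, by 0.96 ± 0.53. Both genes were above every control on mutant arrays 1 and 2 only.

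Pericytes, the mural cells of small vessels, had their highest list means on mutant arrays 1 and 2, as the endothelial genes did. Their 13 genes had means of 0.55, 0.32, 0.11 and -0.09 on mutant arrays 1 to 4 and 0.02, 0.0033, -0.03 and 0.0013 on the controls, a median difference of 0.22 and 0 called, with summed intensities of 5820 to 7175 on the mutant and 5420 to 6402 on the control arrays. Most of each sum was *Zic1*, at 3710 to 4443 on the mutant and 3603 to 4438 on the control arrays. The sums thus say little about the other pericyte genes, and the cells behind the *Zic1* reading were not tested. *Cspg4*, the NG2 proteoglycan, had the smallest p of the list and read 39.96, 42.5, 44.9 and 38.3 on the mutant and 28.1, 35.7, 25.8 and 34.5 on the control arrays, without overlap. *Anpep*, a surface peptidase, differed by 0.51 ± 0.16 at low intensities of 1.63 to 19.8. *Rgs5*, a regulator of G-protein signalling in pericytes, read 585, 541, 550.1 and 541 on the mutant and 481, 381, 445 and 499.9 on the control arrays, without overlap (difference 0.29 ± 0.093, limma adjusted p = 0.585). All 4 mutant arrays lay above all 4 controls for 2 of the 13 genes, against 2.48% of all genes, and below them for 0, against 2.15%. The defining gene *Pdgfrb* read 316, 450.2, 185 and 174 on the mutant and 188, 163, 183 and 179 on the control arrays, with only mutant arrays 1 and 2 clear of the controls. Fewer pericyte genes followed that pair. Both arrays lay above the other 6 for 3 of the 13, against 21 of the 34 endothelial members and 7.9% of all genes. The pericyte list medians were 0.37, 0.14, 0.12 and 0.02 on mutant arrays 1 to 4, against 0.58, 0.40, 0.12 and 0.03 for the endothelial members.

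Macrophage and microglia genes rose in the mutant, by limma, for 9 of the 14, against a called share of 0.214% of all genes. Their means were 1.28, 1.25, 1.18 and 1.05 on mutant arrays 1 to 4 and -0.01, 0.10, -0.14 and 0.04 on the controls, with sums of 2299 to 2573 and 805 to 974. *C1qb*, a chain of complement C1q and the gene with the smallest p of the list, differed by 1.61 ± 0.094 (SE, limma adjusted p = 0.00177). *Csf1r*, the receptor that macrophages need, read 619, 629, 617 and 591 on the mutant and 218, 228, 193 and 249 on the control arrays, high on all 4 mutant arrays. Its difference was 1.41 ± 0.083 (SE, limma adjusted p = 0.00177). The list mean did not follow mutant arrays 1 and 2, unlike the endothelial means. Both arrays lay above the other 6 for 4 of the 14 genes, against 7.9% of all genes. Of these, *Csf1r* and *Fcer1g* were high on all 4 mutant arrays. *Lyl1* read 91.1, 74.1, 36.3 and 59.4 on mutant arrays 1 to 4 and 43.7 to 51.4 on the controls. *Mrc1*, given below, was also highest on that pair. Some members, among them *Pecam1*, *Cd34*, *Fli1* and *Ets1*, are also known from blood cells, and the part of these cells in the endothelial difference was not tested.

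The 9 measured erythroid genes had means of 0.63, -0.04, -0.20 and -0.03 on mutant arrays 1 to 4 and -0.33, -0.02, 0.15 and 0.19 on the controls, so that only mutant array 1 stood above them, with sums of 22270 to 33330 and 22334 to 27992 and 0 called. Of the 7 measured proliferation genes, all were highest on mutant array 1, with means of 0.23, -0.01, -0.20 and 0.03 on mutant arrays 1 to 4 and -0.06, 0.08, 0.03 and -0.05 on the controls. The 8 neuron genes were low on that array. Their means were -0.28, 0.06, 0.22 and 0.14 on the mutant and 0.14, -0.04, -0.05 and -0.04 on the control arrays. The 8 neural progenitor genes had means of 0.02, -0.17, -0.04 and 0.01 on the mutant and 0.04, 0.00094, -0.01 and -0.03 on the control arrays, lowest on mutant array 2. Summed intensities on the mutant and control arrays were 18250.0 to 23744 and 19821 to 21837 for proliferation, 28209 to 39286 and 33070 to 37037 for neuron, and 20108 to 23498 and 21864 to 23391 for progenitor genes. In the 3 lists 0 genes were called, with median differences of 0.01, -0.02 and -0.04, and the part of these cells in the endothelial difference was not tested.

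The arrays differed in further ways that bear on these values. Across all genes 39 were called higher and 2 lower. The first principal component, 25.9% of the variance, set mutant arrays 1 and 2 (-34.1 and -48.4) apart from the other 6 (3.10 to 27.0). *Xist*, transcribed in females, was high on control arrays 2 and 3 and low on the other 6 arrays, so sex was not balanced between the genotypes. With the 2 male controls as the only controls, the median member difference was 0.22, with 0 called.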

How the data were processed

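RNA from E12.5 mouse brain was hybridised to Affymetrix GeneChip mouse arrays, 4 per genotype. The methods name RMA normalization in AffyPLM and a log2 transform, and the submitters' processing notes name RMA, but the deposited values are linear intensities with unequal medians (40.9 to 68.0 per array). What the authors did to reach these intensities is otherwise not given in the sources used here. The number of arrays limits the precision.

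The 64 Affymetrix control probe sets were left out of 45101. The 45037 others were quantile normalized, a constant of 16 was added and log2 was taken. Genotypes were compared with limma 3.58.1 (lmFit and eBayes) in R 4.3.3, with Benjamini-Hochberg adjustment across every probe set in the fit and calls at an adjusted p under 0.05. Gene names came from GEO's platform annotation, in which 34945 probe sets name 1 gene, 932 several and 9160 none, and 8 genes of the comparison lists had no probe set. A single value was also tested by a two-sided exact permutation test over the 8 arrays, whose smallest p is 0.0286. The fit was tested on simulated data.

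The members and lists were chosen with earlier results of these data known. All 34 members are named. Values on all arrays are given for members that were called, had an unadjusted p under 0.05 or had groups without overlap, and for 8 defining endothelial genes, and up to 4 genes of each other list were named by smallest p. *Fli1*, *Mfsd2a*, *Col1a1*, *Lum*, *Ttr*, *Otx2*, *Pdgfrb*, *Zic1*, *Mrc1*, *Lyl1*, *Aplnr*, *Apln* and *Dll4* were added after their values were seen. Replicate numbers were not treated as pairs, because same-numbered arrays did not deviate together (correlations -0.13 to 0.0068). The paper's title for these data calls the controls littermates. The labels give no litter, so the p-values do not account for it. Alternatives tried were the t-test that the methods name, its unequal-variance form, other scalings and constants, filters and probe set rules, array weights, a replicate block, sex, tissue content and leaving out each array.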

Additional observations from a re-analysis of the deposited data

Results flagged for a closer look

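Of 68 groups of 4 arrays tested, 34 members in 2 genotypes, 3 had 1 array far from the other 3 by Dixon's test, and chance flags about 1 in 20 groups. *Flt1* read 51.6 on control array 3, below the other controls at 75.5 to 77.9. *Esam* read 199.7 on control array 2, above the other controls at 175.5 to 178. *Ptprb* read 78.8 on control array 2, below the other controls at 93.9 to 96.8.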

How the results depend on the processing

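0 members were called in either direction under any of the 25 alternatives, and the median difference stayed above 0, from 0.0597 with mutant replicates 3 and 4 alone to 0.383 with no scaling. It was 0.304 with the replicate block, 0.126 with the mesenchyme mean as a covariate, 0.217 with *Eif2s3y* as a covariate and 0.204 to 0.343 leaving out 1 array, lowest without mutant replicate 1. Members at an unadjusted limma p under 0.05 with the mutant higher numbered 10 as reported, 8 with the replicate block, 1 with no scaling or with the 2 male controls, 2 with mutant replicates 3 and 4 alone, 3 without mutant replicate 1, 4 without mutant replicate 2, 12 and 20 without mutant replicates 3 and 4, and 6, 4, 4 and 10 without control replicates 1 to 4. It was 5 with either t-test, 6 with a common median and 2 with the mesenchyme or the *Eif2s3y* covariate. With mutant replicates 3 and 4 alone *Pecam1* was lower at that p. Across all genes the calls were 39 higher and 2 lower, but 0 with the replicate block, with an unequal-variance t-test or with mutant replicates 3 and 4 alone, and 14 higher with the methods' t-test.

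Of 846 values of single members, 32 turned direction, in 14 members, and none of those values was called. With mutant replicates 3 and 4 alone the log2 differences that turned were *Pecam1* -0.23, *Cdh5* -0.0920, *Emcn* -0.10, *Sox17* -0.12, *Sox18* -0.19, *Fli1* -0.0731, *Ets1* -0.0229, *Plvap* -0.0446, *Icam2* -0.0258, *Clec14a* -0.28, *Ece1* -0.19 and *Mfsd2a* 0.0287. With the mesenchyme covariate they were *Pecam1* -0.18, *Sox17* -0.0163, *Sox18* -0.10, *Clec14a* -0.0556 and *Ece1* -0.16. *Sox17* and *Angpt2* turned to -0.0428 and -0.0321 with the *Eif2s3y* covariate and to -0.0428 and -0.0194 with the 2 male controls. *Flt4* and *Angpt2* turned to -0.11 and -0.0353 with the mean of probe sets, and *Mfsd2a* to 0.0211 with no scaling. Leaving out 1 array in turn gave -0.071 to 0.12 for *Angpt2*, -0.12 to 0.20 for *Ece1*, -0.093 to 0.0103 for *Mfsd2a*, -0.089 to 0.12 for *Pecam1* and -0.033 to 0.23 for *Sox17*. The cause was not tested.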

Other observations

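The 3 measured lymphatic endothelial genes had a median difference of -0.14 and 0 were called. *Lyve1*, a hyaluronan receptor of lymphatic endothelium and of some macrophages, read 151.5 and 48.6 on mutant arrays 1 and 2 and 0.575 to 2.26 on the other 6. *Prox1*, the factor that sets lymphatic identity and is also used by neural cells, differed by -0.20 ± 0.11 (SE, limma adjusted p = 0.784). *Mrc1*, a mannose receptor of macrophages and lymphatic endothelium, was 1 of the 14 macrophage and microglia genes. It read 234, 131, 27.6 and 33.9 on mutant arrays 1 to 4 and 15.99, 12.1, 5.69 and 29.2 on the controls.

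The 7 platelet and megakaryocyte genes had a median difference of 0.14, with 6 above 0 and 0 called. All 4 mutant arrays lay above all 4 controls for 1 of the 7, against 2.48% of all genes, and below them for 0, against 2.15%. *Gp9*, a platelet glycoprotein, read 32.4, 12.2, 11.4 and 11.2 on mutant arrays 1 to 4 and 4.54, 1.70, 4.84 and 2.04 on the controls, without overlap at a low intensity (limma adjusted p = 0.43). *Pf4*, platelet factor 4, which fetal macrophages also express, read 443.5, 291, 136.5 and 141 on the mutant and 93.9, 132, 127 and 159.9 on the control arrays. *Aplnr*, the apelin receptor of sprouting veins, read 2015, 1371, 753 and 662 on the mutant and 575 to 712 on the control arrays (difference 0.79 ± 0.32, limma adjusted p = 0.697). Its ligand *Apln* differed the other way, by -0.26 ± 0.09 (limma adjusted p = 0.628), and so did the Notch ligand *Dll4*, by -0.40 ± 0.16 (limma adjusted p = 0.693).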
